A study of Mus musculus with 2 samples.

Results

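The genes described here are Hmgcs1, Idi1, Fdps, Fdft1, Sqle, Lss, Cyp51 and Insig1, which make cholesterol or hold its synthesis in check. They were taken by symbol from the feature tables of 2 single-cell libraries, in which 8 of 8 symbols had a row among 31058 features. 1 library came from kidneys of mice given CA3 after rhabdomyolysis and the other from kidneys of mice given vehicle after rhabdomyolysis, a breakdown of skeletal muscle that injures the kidney (the treatment labels spell it rabrhabdomyolysis). CA3 is an inhibitor of YAP1, a coactivator of the Hippo pathway. Both groups were female C57Bl/6 mice of 9 weeks with the genotype Pax8.rtTA;TetO.Cre;R26.FUCCI2aR, in which a doxycycline-dependent Cre driven from Pax8, a gene of kidney tubule cells, can switch on a fluorescent cell cycle reporter. No uninjured group was analysed here, so every value below comes from injured kidneys. The sources used here do not state the CA3 dose, the time after injury or how many mice each library holds. With 1 library per group no test between CA3 and vehicle was possible, and all intervals below are 95% intervals that cover counting error only.

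Cholesterol is built from acetyl-CoA through HMG-CoA, mevalonate, isoprenoid diphosphates, squalene and lanosterol. The transcription factor SREBP2 switches on most genes of the route when sterols in the endoplasmic reticulum run low, and INSIG proteins hold it back when sterols are plentiful. Hmgcs1 encodes the cytosolic synthase that makes HMG-CoA, Idi1 the isomerase of isopentenyl diphosphate, and Fdps the synthase of farnesyl diphosphate, where the routes to sterols and to other isoprenoids part. Fdft1 encodes squalene synthase, Sqle squalene epoxidase, Lss lanosterol synthase and Cyp51 the demethylase that acts on lanosterol. Insig1 encodes no enzyme of the route: its protein retains the SREBP escort SCAP in the endoplasmic reticulum and is itself made under SREBP control. In the kidney the proximal tubule reabsorbs filtered solutes and proteins along its S1, S2 and S3 segments, and its endocytic receptors also take up filtered lipid-carrying proteins.

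In GENCODE vM21 on GRCm38 (mm10) the early genes lie at chr13:119690379-119708260 on the plus strand (Hmgcs1), chr13:8885501-8892451 on the plus strand (Idi1) and chr3:89093588-89101959 on the minus strand (Fdps). The squalene and lanosterol enzymes lie at chr14:63145150-63179578 on the minus strand (Fdft1), chr15:59315077-59331192 on the plus strand (Sqle), chr10:76531588-76557138 on the plus strand (Lss) and chr5:4081145-4104746 on the minus strand (Cyp51). Insig1 lies at chr5:28071363-28078662 on the plus strand. Since 3' libraries read transcript ends, the last 400 bases of each annotated transcript were cut into words of 31 bases and looked up in the transcripts of other genes. Other transcripts held 57.3% of the words of Fdps, 42.3% of those of Idi1 and 30.8% of those of Fdft1, which leaves their counts uncertain where reads could be shared. The share was 9.05% for Insig1, 0.230% for Lss and 0% for Hmgcs1, Sqle and Cyp51. Cyp51 overlaps Akap9, Fdft1 overlaps Ctsb and Idi1 overlaps Gm48574 on the opposite strand, and Hmgcs1 and Lss overlap antisense genes. The sources used here do not state whether counting used the strand. Fdps overlaps Gm43738, a protein-coding gene, and Gm22935, a small nuclear RNA gene, on its own strand. Gm43738 also shares words with the transcript end of Fdps, and its count was 0 in the proximal tubule cells of each library.

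The upstream bases of Hmgcs1, Cyp51 and Idi1 are shown because the first pair are the members that stood highest in the proximal tubule and because Idi1 is a member whose window held no sterol element. They are the 250 bases before the RefSeq start on GRCm38.p6, at chr13:119690101-119690350 on the plus strand, chr5:4104698-4104947 on the minus strand and chr13:8885356-8885605 on the plus strand in that order. Capitals mark the letters TCACNCCAC (a sterol regulatory element), the looser letters TCACNNCA, and CCAAT boxes, on either strand, so that a box on the other strand reads ATTGG.
Hmgcs1: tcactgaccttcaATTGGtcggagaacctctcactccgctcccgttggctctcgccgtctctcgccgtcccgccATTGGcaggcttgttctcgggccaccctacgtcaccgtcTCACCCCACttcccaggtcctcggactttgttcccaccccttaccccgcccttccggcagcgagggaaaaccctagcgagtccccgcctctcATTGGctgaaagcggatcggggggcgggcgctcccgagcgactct
Cyp51: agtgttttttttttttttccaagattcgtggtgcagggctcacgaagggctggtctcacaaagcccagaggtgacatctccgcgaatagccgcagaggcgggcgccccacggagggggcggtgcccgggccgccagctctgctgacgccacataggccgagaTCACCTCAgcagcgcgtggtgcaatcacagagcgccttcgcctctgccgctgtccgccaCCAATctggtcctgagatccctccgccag
Idi1: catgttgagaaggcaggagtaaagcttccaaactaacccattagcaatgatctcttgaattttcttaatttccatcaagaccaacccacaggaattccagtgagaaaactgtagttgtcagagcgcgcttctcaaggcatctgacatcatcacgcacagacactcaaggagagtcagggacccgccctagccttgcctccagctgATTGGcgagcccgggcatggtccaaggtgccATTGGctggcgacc
5 of the 8 members had an entry in the promoter table (Hmgcs1, Idi1, Lss, Cyp51 and Insig1), and windows of 250 bases before to 50 after the start were searched on both strands. The stricter sterol element was in 1 of the 5, Hmgcs1, 137 bases before the start, and in 1.24% of 32851 promoters. The looser letters, which were added later and also match the stricter element, were in 2 of the 5, Hmgcs1 and Cyp51 (88 bases before the start), and in 13.8% of all promoters. CCAAT was in 5 of the 5 and in 37.4% of all promoters, and the GC box GGGCGG in 5 of the 5 and in 35.7%. The E-box CACGTG was in 1 of the 5, Insig1, and in 7.15%. These matches describe letters only.

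The CA3 library held 1724 barcodes and 17013222 unique molecular identifiers (UMIs, 1 per captured RNA molecule), and the vehicle library 1967 barcodes and 19592239 UMIs. 1491 CA3 cells and 1766 vehicle cells were kept, with a median of 7571 and 7334 UMIs and a median mitochondrial share of 17.7% and 17.4%, and the libraries shared 1 barcode. The cells fell into 20 clusters, grouped by marker genes into classes that are called by the cell type they resemble. Proximal tubule-like cells numbered 1162 of the CA3 cells and 1438 of the vehicle cells (77.9% and 81.4% of kept cells). Their 8 markers, all detected, summed to 16493 CPM in CA3 and 16210 CPM in vehicle, against 1555 and 1736 CPM in all other kept cells. The distal convoluted tubule-like cluster was also led by connecting tubule genes. Levels are given as CPM, the UMIs of a gene for every 1000000 UMIs of non-mitochondrial genes, both summed over the cells of a class, and 3' counts need no correction for transcript length.

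Hmgcs1 was the most abundant of the 8 genes in the proximal tubule-like cells. It had 283 CPM in CA3 (2602 UMIs, interval 273 to 295) and 287 CPM in vehicle (3051 UMIs, 277 to 298), and a UMI was seen in 71.8% of CA3 and 73.9% of vehicle cells. The next level was that of Cyp51, with 79.8 CPM in CA3 (733 UMIs, 74.2 to 85.8) and 110 CPM in vehicle (1164 UMIs, 103 to 116). Below both lay Idi1 with 51.2 CPM in CA3 and 42.5 CPM in vehicle, Fdps with 39.3 and 25.3 CPM, Sqle with 38.4 and 31.1 CPM, and Insig1 with 36.4 and 29.4 CPM. Fdps, Sqle and Insig1 were neighbours in this order whose intervals overlapped in each library. The lowest levels were those of Fdft1, 14.9 CPM in CA3 and 15.8 CPM in vehicle, and of Lss, 14.3 and 11.5 CPM. The pathway was thus sampled unevenly: the synthase at its entry gave about as many UMIs as all 7 others together, and for the squalene and lanosterol synthases a UMI was seen in no more than 10.6% of cells of a library.

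Across classes the order differed between genes. Hmgcs1 stood highest in the proximal tubule in both libraries. It had 174 CPM in CA3 and 241 CPM in vehicle in thick ascending limb-like cells, 180 and 191 CPM in distal convoluted tubule-like cells, and 182 and 184 CPM in intercalated-like cells, and in each library the intervals of these 3 classes overlapped. Endothelial-like cells had 113 and 94.0 CPM and principal-like cells 81.8 and 88.6 CPM of Hmgcs1. T or NK-like cells had the lowest level, 44.5 CPM in CA3 (27 UMIs) and 35.9 CPM in vehicle (10 UMIs). Proximal tubule markers reached 8.75% in CA3 and 11.7% in vehicle of their proximal tubule level in these lymphocytes, and Hmgcs1 reached 15.7% and 12.5%. The lower bounds of those 2 values did not pass the highest single marker (11% in CA3 and 23.0% in vehicle), while in CA3 the bound of 10.3% lay above the summed markers (8.17% to 9.35%). The part of free RNA in the Hmgcs1 count of lymphocytes was not tested.

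**Figure D1:**
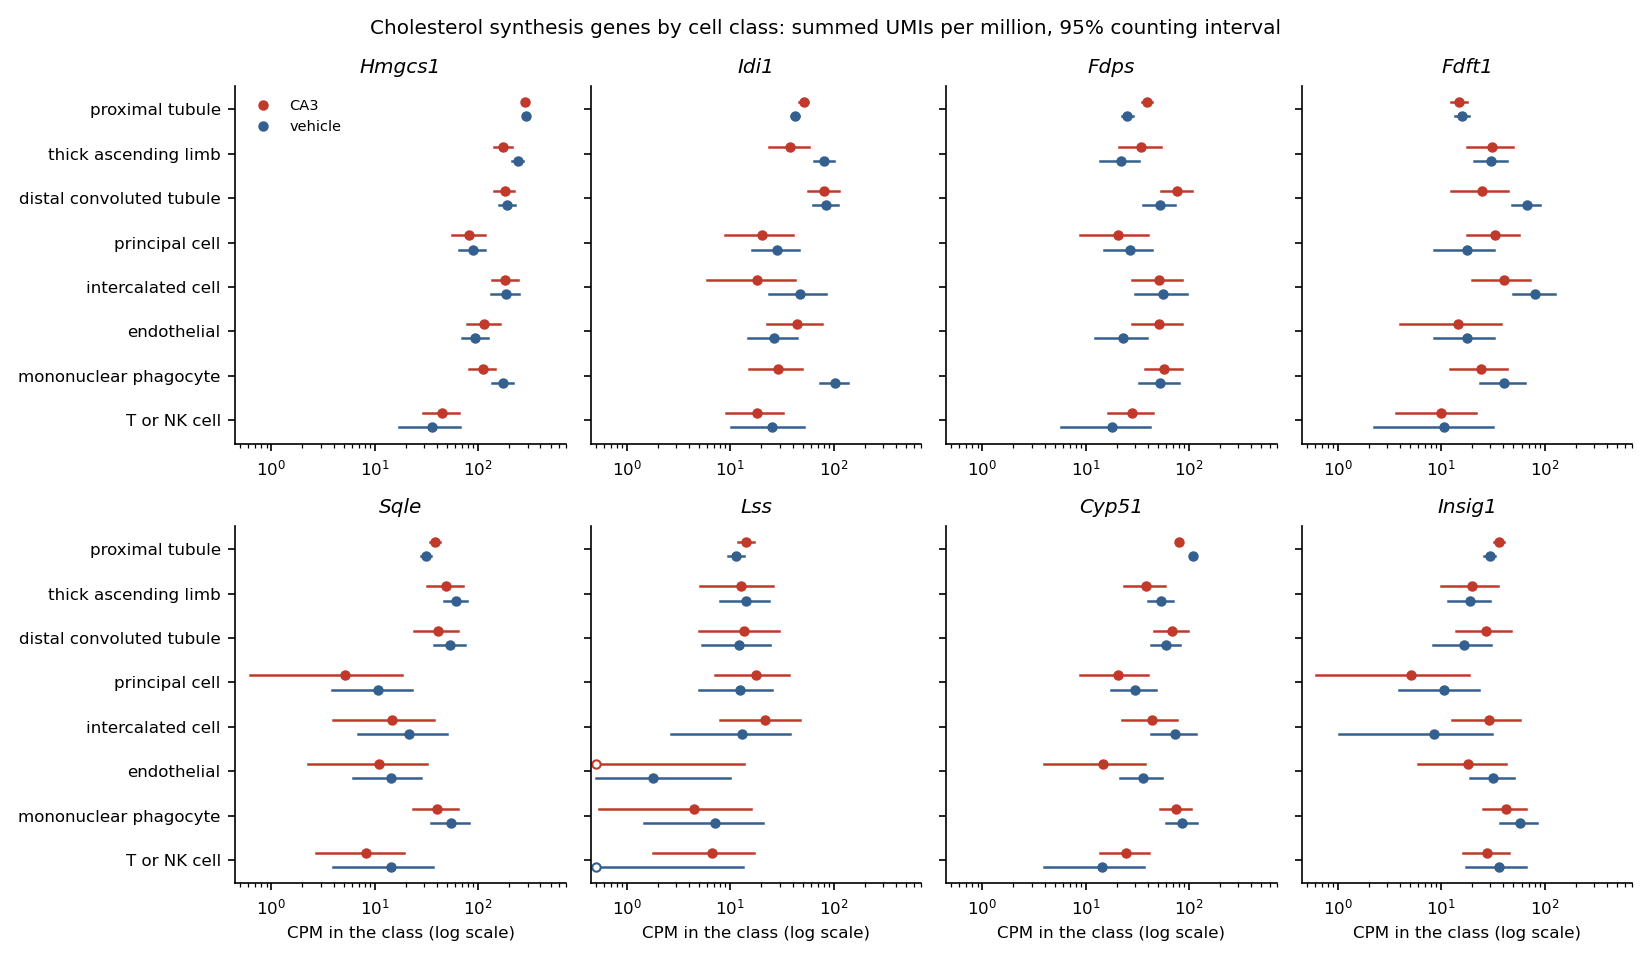
Level of each gene in 8 cell classes, in CPM on a log scale, with CA3 (red) above vehicle (blue) in each row; bars are 95% counting intervals and open circles at the left edge mark classes with no UMI. Hmgcs1 is highest in the proximal tubule at 283 CPM in CA3 and 287 CPM in vehicle, while Fdft1 has its highest point in intercalated-like cells.

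Idi1, Fdps, Fdft1 and Sqle did not have their highest level in the proximal tubule. Idi1 had 81.1 CPM in CA3 (36 UMIs) and 84.1 CPM in vehicle (55 UMIs) in distal convoluted tubule-like cells, above the proximal tubule intervals of 46.7 to 56.0 in CA3 and 38.6 to 46.6 in vehicle. In vehicle the highest Idi1 level was that of mononuclear phagocyte-like cells, 102.5 CPM, against 28.8 CPM in the same class of CA3. That vehicle level rested on few cells, as 3 of the 43 held 26 of the 43 UMIs. Without the 3 cells of each library that held most Idi1, the level was 47.1 CPM in vehicle and 14.6 CPM in CA3. Fdps had 76.6 CPM in CA3 and 52.0 CPM in vehicle in distal convoluted tubule-like cells, again above the proximal tubule interval in each library, and in vehicle intercalated-like cells (55.7 CPM) and mononuclear phagocyte-like cells (52.5 CPM) stood as high. Fdft1 was highest in intercalated-like cells, at 40.1 CPM in CA3 (11 UMIs) and 81.5 CPM in vehicle (19 UMIs), with intervals that lay above those of the proximal tubule. Sqle was highest in thick ascending limb-like cells, with 49.0 CPM in CA3 (interval 32.3 to 71.3, overlapping the proximal tubule's) and 61.0 CPM in vehicle (47.0 to 77.9, above it). Sqle was low in principal-like cells, at 5.11 CPM in CA3 (2 UMIs) and 10.6 CPM in vehicle (6 UMIs), against 38.4 and 31.1 CPM in the proximal tubule. The 7 other classes compared held 14 to 96 cells in a library, and their intervals are wide.

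Cyp51, Insig1 and Lss followed other orders. Cyp51 stood highest in the proximal tubule, and mononuclear phagocyte-like cells came next with 75.4 CPM in CA3 (34 UMIs) and 85.8 CPM in vehicle (36 UMIs), whose intervals overlapped the proximal tubule's. This rank rested on the few S3-like cells described below: without them the proximal tubule-like cells had 61.2 CPM of Cyp51 in CA3 and 61.5 CPM in vehicle, below mononuclear phagocyte-like cells in both libraries, below distal convoluted tubule-like cells in CA3 (67.6 CPM) and below intercalated-like cells in vehicle (72.9 CPM). Insig1 was highest in mononuclear phagocyte-like cells, at 42.1 CPM in CA3 and 57.2 CPM in vehicle, and its intervals overlapped those of T or NK-like cells at 28.0 and 35.9 CPM. Insig1 in those lymphocytes stood at 77.0% in CA3 and 122% in vehicle of its proximal tubule level, with lower bounds of 44.3% and 58.0% that passed every proximal tubule marker. Lss was the most sparsely counted, with 0 to 15 UMIs in each class other than the proximal tubule. No Lss UMI was seen in the 38 CA3 endothelial-like cells or in the 51 vehicle T or NK-like cells, which allows up to 13.5 and 13.2 CPM by the upper bound of the interval.

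Within the proximal tubule, clusters were placed in segments by S1, S2 and S3 markers. 447 CA3 and 548 vehicle cells were S1-like, 586 and 720 were S2-like, 21 and 53 were S3-like, and 108 and 117 were given no segment. The genes of all sterol and lipid lists had been left out of the variable genes before clustering, so the clusters were not defined by them. No member was a segment marker, but Cyp7b1, of the efflux and storage list, was among the S3 markers. Hmgcs1 was flat between the first 2 segments, with 280 CPM in S1-like and 274 CPM in S2-like cells of the CA3 library, and 263 and 282 CPM in the vehicle library. Fdps was higher in S1-like than in S2-like cells, 48.5 against 27.9 CPM in CA3 (ratio 1.73, interval 1.38 to 2.19) and 31.1 against 20.2 CPM in vehicle (1.54, 1.18 to 2.01). Idi1 (58.6 against 43.4 CPM in CA3, 44.8 against 38.6 in vehicle), Insig1 (44.2 against 32.3 and 35.2 against 28.5) and Lss (20.6 against 10.5 and 14.4 against 10.5) also had the higher level in S1-like cells in each library, with ratio intervals that held 1 in vehicle. Cyp51 ran the other way, with 47.7 CPM in S1-like against 76.1 CPM in S2-like cells in CA3 (ratio 0.627, interval 0.521 to 0.752) and 53.5 against 74.5 CPM in vehicle (0.719, 0.608 to 0.848).

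Cyp51 set the S3-like cells apart. It had 1166 CPM (181 UMIs, interval 1002 to 1348) in the 21 S3-like cells of the CA3 library and 1347 CPM (535 UMIs, 1236 to 1467) in the 53 S3-like cells of the vehicle library, against 62.7 and 64.7 CPM in S1-like and S2-like cells together. The ratio was 18.6 (interval 15.6 to 22.1) in CA3 and 20.8 (18.5 to 23.4) in vehicle. Of 10670 genes measured in CA3 and 10859 in vehicle, 0.515% and 0.672% were at least 10 times higher in S3-like cells, and Cyp51 ranked 36 and 47 by this ratio. A Cyp51 UMI was seen in 20 of 21 CA3 and 48 of 53 vehicle S3-like cells. The median cell held 5 UMIs in CA3 and 6 UMIs in vehicle, and the highest 32 and 76. Depth was similar: the S3-like cells had a median of 8217 UMIs in CA3 and 6628 in vehicle, against 7874 and 7188 for all proximal tubule-like cells, and with every cell thinned to 2000 UMIs 71.4% and 79.2% of S3-like cells still held a Cyp51 UMI, against 9.47% and 10.7% of all proximal tubule-like cells. Without the 3 cells of each library that held most Cyp51, the S3-like ratio was 17.4 in CA3 and 19.5 in vehicle.

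**Figure D2:**
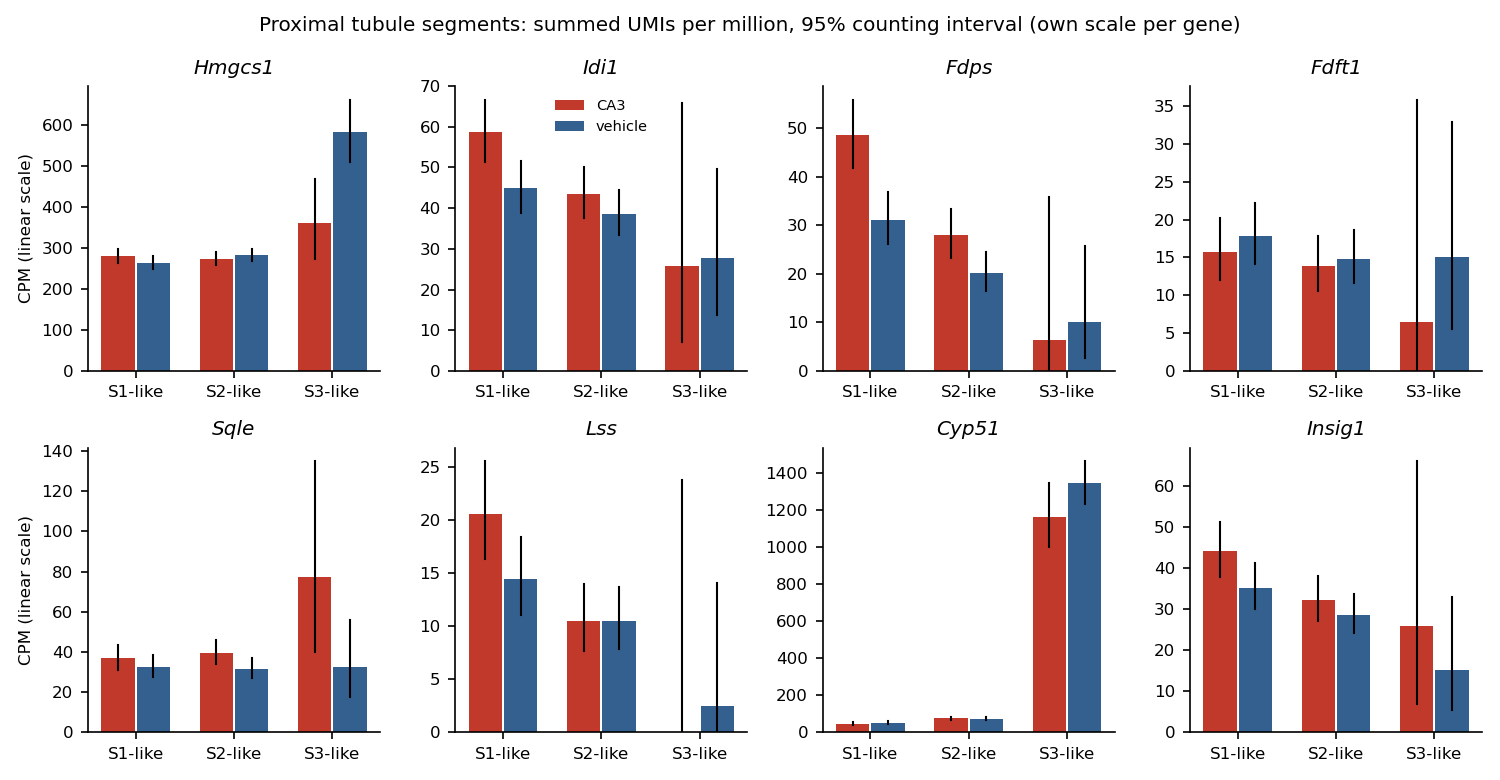
Level of each gene in S1-like, S2-like and S3-like cells, in CPM on a linear scale of its own for each gene, with CA3 (red) left of vehicle (blue); lines are 95% counting intervals. Cyp51 reaches 1166 CPM in CA3 and 1347 CPM in vehicle in S3-like cells and stays below 77 CPM in the other segments, while Fdps, Idi1 and Insig1 have their lowest points in S3-like cells.

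The cluster was called S3-like because 6 of 8 S3 markers were above their level over all proximal tubule-like cells by a ratio of 5 to 4 or more, and Kap, Napsa, Aadat and Slc7a12 led it beside Cyp51. Outside the cluster, 4 CA3 and 13 vehicle proximal tubule-like cells held a UMI of Slc7a12, an amino acid carrier family member used as an S3 marker. 2 of the 4 and 6 of the 13 held Cyp51, and 1 CA3 cell held 32 of the 33 UMIs, so no level is read from them. An S2-like cluster of 185 CA3 and 259 vehicle cells had 4 of 5 S2 markers and 4 of 8 S3 markers past the ratio of 5 to 4. It was placed by the higher median of its S2 markers, so the S3-like cells need not be all S3 cells of a library.

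The rest of the pathway did not share the Cyp51 pattern. Hmgcs1 had 361 CPM in CA3 (56 UMIs) and 582 CPM in vehicle (231 UMIs) in S3-like cells, against 277 and 273 CPM in S1-like and S2-like cells, a ratio of 1.30 (interval 0.980 to 1.70) in CA3 and 2.13 (1.85 to 2.44) in vehicle. Sqle had a ratio of 2.01 (1.03 to 3.56) in CA3 from 12 UMIs and 1.02 (0.536 to 1.77) in vehicle from 13 UMIs, so the libraries differed. Fdps had 6.44 CPM (1 UMI) in CA3 and 10.1 CPM (4 UMIs) in vehicle, against 37.6 and 25.3 CPM in the other segments. Lss had 0 UMIs and 1 UMI, Fdft1 1 and 6, and Insig1 4 and 6. Idi1 had 25.8 and 27.7 CPM, against 50.6 and 41.5 CPM. Counted past 1.5-fold in both libraries, 1 of the 8 genes was higher in S3-like cells, Cyp51, where 6.46% of 10539 genes were, and 2 were lower, Fdps and Lss, where 26.9% were. Intervals of Fdps and Lss reached above 1 in the vehicle library, and that of Lss in CA3 as well.

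The other lipid lists were mixed in the S3-like cells. Past 1.5-fold in both libraries, 5 of 11 measured fatty acid synthesis genes were higher (Fasn, Scd1, Elovl6, Me1 and Fads2) and 3 lower (Acaca, Scd2 and Gpam), 3 of 8 efflux and storage genes were higher (Nr1h3, Soat1 and Apoe) and 3 lower (Lipa, Osbp and Cyp27a1), and 1 of 8 uptake genes was higher and 3 lower, beside the 6.46% and 26.9% of all genes. Of the 15 other sterol enzymes 1 was higher, Ebp, and 1 lower, Lbr. Among the genes of these counts, intervals lay above 1 in both libraries only for Scd1, Elovl6, Me1, Soat1, Apoe and Ebp, and below 1 only for Lipa. Scd1, the stearoyl-CoA desaturase, had 354 CPM in CA3 (55 UMIs) and 272 CPM in vehicle (108 UMIs), against 5.87 and 8.60 CPM in S1-like and S2-like cells, which is 60.3 times (40.3 to 90.5) and 31.6 times (23.5 to 42.7). Bdh1, a mitochondrial dehydrogenase of ketone bodies, had 155 and 156 CPM against 2.52 and 3.18 CPM. In CA3, 3 S3-like cells held 33 of the 55 Scd1 UMIs, and 3 held 16 of the 24 Bdh1 UMIs. Without the 3 cells of each library that held most of the gene, Scd1 had 190 CPM in CA3 and 213 CPM in vehicle, and Bdh1 67.2 and 128 CPM. Ebp, the sterol isomerase that acts after Cyp51, had 386 and 292 CPM against 103 and 106 CPM, a ratio of 3.75 in CA3 and 2.77 in vehicle. Soat1, which esterifies cholesterol, had ratios of 3.91 and 2.49, Elovl6, a fatty acid elongase, 2.41 and 4.16, and Apoe, the lipid carrier, 2.55 and 1.89. Lipa, the lysosomal acid lipase, stood lowest among the listed genes whose interval lay below 1 in both libraries, with ratios of 0.129 and 0.143. Srebf2, the gene of SREBP2, had 19.3 CPM (3 UMIs) and 22.7 CPM (9 UMIs) against 54.7 and 51.7 CPM. Ebp, Soat1, Elovl6 and Lipa were picked for this paragraph after their values were seen.

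**Figure D3:**
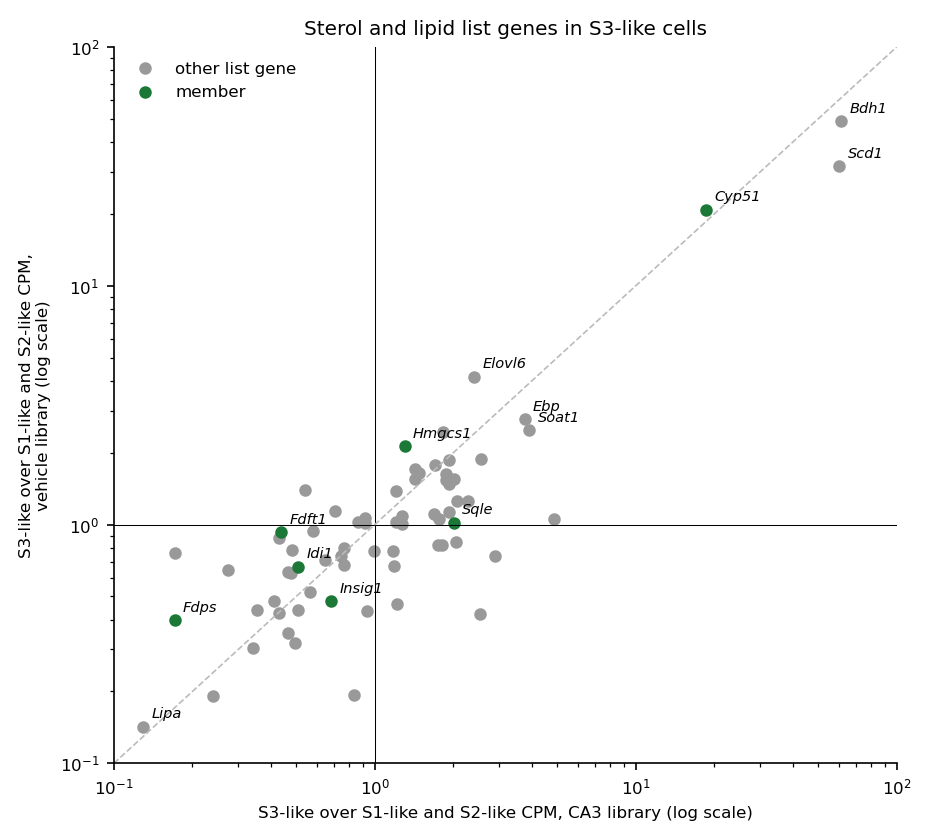
Ratio of the level in S3-like cells to that in S1-like and S2-like cells, CA3 library on the horizontal and vehicle library on the vertical axis (both log scales), for 7 of the 8 members (green) and 67 other genes (grey) with a UMI in S3-like cells of both libraries; Lss, with no UMI in CA3, is not drawn. The other genes are those of the lipid lists and the tubule genes Slc34a1, Slc22a7, Slc7a12, Kap and Slc5a2, which are in no list. Slc22a7, Slc7a12, Kap and Slc5a2 lie beyond the axes. Cyp51 lies at 18.6 and 20.8, near Scd1 and Bdh1 and away from the other members.

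2 clusters, led by stress genes such as Jun, Fosb and Fos, gave a second contrast inside the S1-like and S2-like cells. In all 4 comparisons, by segment and library, Idi1 was lower in the stress-led cluster than in the other clusters of its segment, with ratios of 0.477 to 0.662 and intervals below 1. Fdps was lower in 4 of 4 as well, at 0.444 to 0.708, with 2 intervals below 1. Cyp51 was higher in 4 of 4, at 1.32 to 1.98 with 3 intervals above 1, and Sqle in 4 of 4, at 1.02 to 1.88 with 1 interval above 1. Of 9153 genes measured in all 4 comparisons, 23.6% were lower and 19.3% higher in all 4. Hmgcs1, Fdft1, Lss and Insig1 did not keep 1 direction. In S2-like cells, for example, Cyp51 had 113 CPM in CA3 and 105 CPM in vehicle in the stress-led cluster, against 63.0 and 63.5 CPM in the other clusters, while Idi1 had 26.6 and 21.8 CPM against 49.4 and 44.7 CPM. The stress-led cells were also deeper, with medians of 12328 to 15534 UMIs against 6300 to 8260, and their median mitochondrial share was 11% to 11.9% against 17.3% to 25.2%. The part of depth and RNA quality in these values was not tested.

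Coordination between the genes from cell to cell was weak. Over 1162 CA3 and 1438 vehicle proximal tubule-like cells, the median Pearson correlation of the 28 pairs was 0.033 in CA3 and 0.029 in vehicle, on log counts per 10000. Over all pairs of the 3049 and 3423 genes with at least 500 UMIs in those cells it was 0.017 and 0.015. Of the members only Hmgcs1 and Cyp51 reached 500 UMIs in each library. 24 of 28 pairs were above 0 in each library, where 60.2% in CA3 and 59.8% in vehicle of all pairs of genes with at least 500 UMIs were. The highest was 0.121 for Hmgcs1 with Fdft1 in CA3 and 0.104 for Hmgcs1 with Cyp51 in vehicle. With cells thinned to 2000 UMIs the medians were 0.027 and 0.012, and those of all pairs of genes with at least 500 UMIs left were 0.047 and 0.033. Then 22 of 28 member pairs in CA3 and 18 of 28 in vehicle were above 0, where 69.0% and 65.2% of all pairs of those genes were. Sparse counts keep correlations low and most members are sparser than those genes, so no order between members and all pairs is read. Cells of a library share its depth and base composition, and in counts this sparse a weak correlation is no finding.

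Over the 9 proximal tubule clusters other than the S3-like one, levels were less sparse. 4 of 28 pairs (14.3%) had r of at least 0.5 in both libraries on log2 CPM, where 12.9% of all pairs of 7902 genes with at least 100 UMIs per library did, and 2 (7.14%) had -0.5 or below in both, where 11.8% did. The members' shares lay near those of all genes, and no pair is read as coordinated. The 9 points are clusters of 1 library, not replicates, and depth moved with some of the genes: the correlation with the median UMI count of the cluster was -0.76 in CA3 and -0.40 in vehicle for Idi1, -0.68 and -0.64 for Fdps, and 0.83 and 0.66 for Insig1. Its part in these values was not tested.

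The genes most like the summed members over proximal tubule-like cells, by the smaller of the 2 libraries' correlations among 3027 genes, were Kap, Aadat, Keg1, Actb, Pdzk1, Ywhaz, Napsa, Defb29, H3f3b and Cndp2. Their correlations were 0.109 to 0.165 in CA3 and 0.109 to 0.282 in vehicle, and Kap, Aadat and Napsa led the S3-like cluster. Without S3-like cells 5 of these 10 genes were still among the first 10 (Ywhaz, Actb, Pdzk1, H3f3b and Keg1), and with Cyp51 left out of the sum 4 of 10 were (Ywhaz, Actb, Pdzk1 and Keg1). Over the 3 classes with at least 50 cells per library (6 points, so that high values come easily), Coq4, Bckdha, Slc25a4, Prkag2 and Atg4c were most like the summed members, with r from 0.999 (Atg4c) to 0.9996 (Coq4). Over 8 classes (16 points) other genes led, Eaf2, Fth1, Txn2, Chchd4 and Mtif3, with r of 0.807 to 0.823.

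CA3 against vehicle was compared first over all proximal tubule-like cells, since the series asked for pathways and targets in the injured kidney. The 8 genes together were level, with 558 CPM in CA3 (5121 UMIs) and 553 CPM in vehicle (5867 UMIs), a ratio of 1.01 (interval 0.972 to 1.05). Single genes ran in both directions. Fdps was 1.55 times higher in CA3 (1.32 to 1.82), and it was the only member past 1.5-fold: 1 of 8 higher and 0 lower, where 3.38% of 11790 measured genes were higher and 4.78% lower. Insig1 (ratio 1.24, interval 1.06 to 1.45), Sqle (1.24, 1.06 to 1.44), Lss (1.24, 0.963 to 1.60) and Idi1 (1.21, 1.06 to 1.37) stood somewhat higher in CA3. Hmgcs1 (0.986, 0.936 to 1.04) and Fdft1 (0.943, 0.747 to 1.19) had intervals that held 1. Cyp51 was lower, with a ratio of 0.728 (0.663 to 0.80). 4 of 8 intervals lay above 1 and 1 below, where 9.47% and 11.2% of all genes had such intervals. Past the smaller ratio of 5 to 4, 1 of 8 was higher and 1 lower, where 9.61% and 9.84% of genes were. The median log2 ratio of the 8 was 0.29, where that of all genes was -0.002. Thinned to 2000 UMIs per cell, Fdps had 68 UMIs in CA3 and 69 in vehicle, a ratio of 1.24 (0.871 to 1.75), which is not past 1.5-fold, and words of its transcript end are shared with other transcripts.

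The lower Cyp51 moved with the number of S3-like cells. These made up 1.81% (exact interval 1.12 to 2.75) of the CA3 and 3.69% (2.77 to 4.79) of the vehicle proximal tubule-like cells and held 24.7% and 46.0% of the Cyp51 UMIs. Without them, an alternative added after seeing the data, Cyp51 had 552 UMIs in CA3 and 629 in vehicle and a ratio of 0.994 (0.885 to 1.12). Among the S3-like cells themselves the ratio was 0.865 (0.727 to 1.03). The other genes moved little: without S3-like cells Fdps stood at 1.54 (1.31 to 1.81), Sqle at 1.22, Insig1 at 1.22, Idi1 at 1.2, Lss at 1.23, Fdft1 at 0.951 and Hmgcs1 at 1.02. The sum of the 8 then had a ratio of 1.09 (1.05 to 1.13). With 1 library per group, an effect of CA3 on the share of S3-like cells and other differences between the libraries cannot be told apart.

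**Figure D4:**
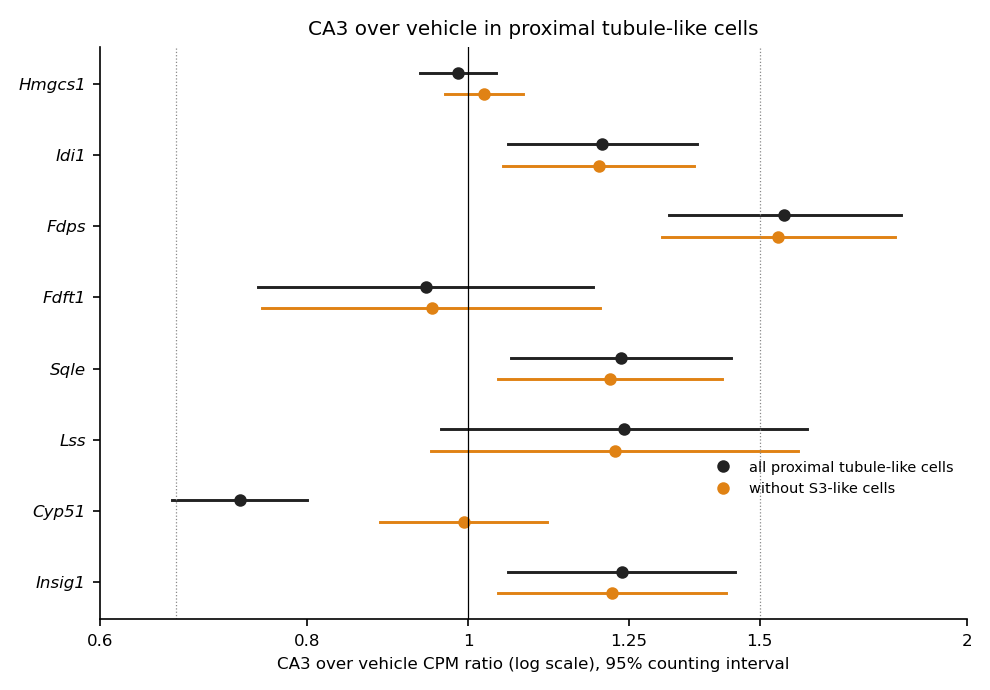
Ratio of the CA3 to the vehicle level of each gene in proximal tubule-like cells, on a log scale with 95% counting intervals, over all cells (black) and without S3-like cells (orange); dotted lines mark 1.5-fold in each direction. Fdps lies at 1.55 and 1.54, and Cyp51 moves to 0.994 without S3-like cells.

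By segment, Fdps was higher in CA3 in S1-like cells (191 UMIs in CA3 and 136 in vehicle, ratio 1.56, interval 1.24 to 1.96), in S2-like cells (123 and 102 UMIs, 1.38, 1.06 to 1.82) and in the cells with no segment (46 and 27 UMIs, 2.0, 1.21 to 3.34). In S3-like cells it had too few UMIs to compare. Idi1 stood at 1.31 (1.08 to 1.59) in S1-like and 1.12 (0.916 to 1.38) in S2-like cells, Lss at 1.43 (1.01 to 2.02) and 0.996 (0.656 to 1.51), and Sqle at 1.13 (0.893 to 1.44) and 1.255 (1.01 to 1.56). These pairs of intervals overlap, and the difference between segments was not tested. Past 1.5-fold, 1 of 8 members was higher in S1-like cells, where 4.01% of 10665 genes were, and 0 of 8 in S2-like cells, where 4.45% of 10636 were. Hmgcs1 in S3-like cells was lower in CA3, with 361 CPM from 56 UMIs against 582 CPM from 231 UMIs in vehicle (ratio 0.620, interval 0.454 to 0.833). The median over all genes in those cells was 0.923, and 20.3% of 3785 genes were past 1.5-fold lower there.

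Outside the proximal tubule the counts were small. In distal convoluted tubule-like cells (51 in CA3, 56 in vehicle) the sum of the 8 had a ratio of 0.953 (0.803 to 1.13), and Fdft1 had 11 UMIs in CA3 and 44 in vehicle, a ratio of 0.368 (0.172 to 0.725), where 11.6% of 6896 genes were past 1.5-fold lower. In T or NK-like cells (96 and 51) the sum had a ratio of 1.09 (0.756 to 1.59). Of the 5 classes with fewer than 50 cells in a library, intervals of the sum held 1 in intercalated-like (401 CPM in CA3 and 484 CPM in vehicle, ratio 0.828, 0.631 to 1.09), principal-like (205 and 225 CPM, 0.909, 0.679 to 1.21) and endothelial-like cells (267 and 245 CPM, 1.09, 0.810 to 1.46), and lay below 1 in the other two. In thick ascending limb-like cells (48 and 90) the sum stood at 397 CPM in CA3 and 522 CPM in vehicle (ratio 0.761, 0.648 to 0.892), with Idi1 at 38.1 and 81.0 CPM (0.471, 0.277 to 0.766) and at 0.392 without the 3 cells of each library that held most of it. Idi1 was the only 1 of the 8 past 1.5-fold lower there, where 11.6% of 8565 genes were. In mononuclear phagocyte-like cells (44 and 43) the sum stood at 384 and 575 CPM (0.668, 0.546 to 0.815), with Idi1 at 28.8 and 103 CPM (0.281, 0.139 to 0.533) and at 0.310 without the top 3 cells. Past 1.5-fold lower there were Hmgcs1, Idi1 and Fdft1, 3 of 7 measured members, where 14.2% of 5684 genes were. For Hmgcs1, the top 3 cells held 28 of 50 UMIs in CA3 and 45 of 73 in vehicle. Without them its ratio was 0.735, which is not past 1.5-fold. Idi1 was thus higher in CA3 in the proximal tubule and lower in these 2 classes, and the difference between classes was not tested. Some members stood higher in CA3 outside the proximal tubule. Fdps had 34.5 CPM in CA3 (19 UMIs) and 21.9 CPM in vehicle (23 UMIs) in thick ascending limb-like cells. In endothelial-like cells Fdps had 51.2 and 23.1 CPM and Idi1 43.9 and 26.6 CPM, while Cyp51 had 14.6 and 35.5 CPM. Fdps had 28.0 and 17.9 CPM in T or NK-like cells, and Insig1 27.0 and 16.8 CPM in distal convoluted tubule-like cells. The CA3 and vehicle intervals overlapped in each case.

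The other genes of the route, taken as listed groups, had median ratios nearer 1 in proximal tubule-like cells than the 8 members. Of 15 other mevalonate and sterol enzymes, 0 were past 1.5-fold and 2 were past the ratio of 5 to 4 higher in CA3, with a median log2 ratio of 0.11. One of them was Msmo1, a methyl sterol oxidase that acts after Cyp51 (40.4 CPM in CA3 and 30.4 CPM in vehicle, ratio 1.33, interval 1.14 to 1.55). Acat2 stood at 1.22 (1.10 to 1.36) and Nsdhl at 1.14 (1.03 to 1.27), while Mvd (1.14), Sc5d (1.13) and Dhcr7 (1.17) had intervals that held 1. The 9 genes of the isoprenoid branch had a median of 0.002 and the 11 SREBP regulators a median of 0.04. Among the regulators Srebf2 stood at 1.08, Scap at 1.03, Srebf1 at 0.927 and Insig2 at 0.922, all with intervals that held 1, and Syvn1, an endoplasmic reticulum ubiquitin ligase, at 1.36 (1.14 to 1.62).

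Of 8 measured SREBP2 targets in uptake and transport the median was 0.14, with Stard4, a sterol carrier, at 1.01 and Mylip, a ubiquitin ligase, at 0.789 (0.687 to 0.905). The 11 measured fatty acid synthesis genes had a median of 0.04, with Fasn at 1.28 (1.03 to 1.59), Gpam at 0.769 (0.602 to 0.979) and Scd1 at 0.617 (0.481 to 0.787). Without S3-like cells, an alternative added after seeing the data, Scd1 had 49 UMIs in CA3 and 87 in vehicle and a ratio of 0.638 (0.440 to 0.915). The 8 measured efflux, storage and LXR genes had a median of 0.01, with Abca1, the exporter of cholesterol to lipoproteins, at 37.0 CPM in CA3 and 48.9 CPM in vehicle (0.758, 0.659 to 0.870) and Apoe at 369 and 419 CPM (0.881, 0.842 to 0.921). Of the 5 ketone body genes, which share HMG-CoA with the sterol route in mitochondria, Bdh1 stood at 0.597 (0.414 to 0.851), and without S3-like cells at 0.858 (0.489 to 1.49) from 25 UMIs in CA3 and 33 in vehicle. Their median was -0.07.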

How the data were processed

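Total kidney cells were profiled as 10x Chromium 3' libraries, per the labels. The authors deposited UMI counts, not normalized, from Cell Ranger 3.0.1 on mm10, per the submitters' processing notes; the sources used here do not state how cells were called. Cells were kept if they had 500 genes or more and no more than 50% mitochondrial UMIs, and Scrublet marked 3 CA3 cells and 1 vehicle cell as doublets, which were removed, so others may remain. Both libraries were clustered together with scanpy 1.11.5 (2000 variable genes without mitochondrial genes and the 81 sterol list genes, 30 principal components, 15 neighbours, Leiden resolution 1). Classes were named from marker lists. A segment needed at least 3 markers at a ratio of 5 to 4 or more to the proximal tubule level, a threshold set after seeing the data.

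UMIs were summed per class and library. Levels have exact Poisson intervals and ratios the exact conditional binomial interval of 2 counts. Genes entered counts and medians of ratios with at least 20 UMIs over both groups compared, and correlations used higher minimums. Intervals were tested on simulated Poisson counts with known ratios. Those counts follow the model of the interval and leave out the uneven spread of UMIs over cells, so they cannot show whether the intervals are wide enough here. All 8 members are named, and 18 other list genes by rule, of which some are not reported here; of each list up to 4 further genes with at least 100 UMIs and the largest ratios were named. Members, lists and markers were chosen with earlier results of these data known. No p-value was computed.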

Additional observations from a re-analysis of the deposited data

How the results depend on the processing

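No paired analysis was possible because each group has 1 library. Over 13 alternatives each, the CA3 over vehicle ratio ranged from 1.24 to 1.71 for Fdps, 1.16 to 1.59 for Sqle, 1.15 to 1.24 for Idi1, 1.21 to 1.33 for Insig1, 1.13 to 1.28 for Lss, 0.754 to 1.04 for Fdft1, 0.812 to 1.02 for Hmgcs1 and 0.641 to 0.994 for Cyp51. Values that moved by more than their counting interval were few. With cells thinned to 2000 UMIs, Sqle stood at 1.45 and Fdps at 1.24, so that 0 members were past 1.5-fold. The same thinning gave medians of -0.23 for the fatty acid synthesis genes and -0.24 for the efflux genes, and 526 CPM for the members summed in vehicle. Without the stress-led clusters Cyp51 stood at 0.641, 2 members were past 1.5-fold and 4 past a ratio of 5 to 4, and the S3-like ratio of Cyp51 was 22.6 in CA3 and 23.7 in vehicle. With equal weight to each segment Hmgcs1 stood at 0.812, Sqle at 1.59 and Cyp51 at 0.874, with 4 members past 5 to 4. 4 were also past it with the mean of the cells' CPM and at Leiden resolution 0.5, and 1 without the S3-like cluster, where Cyp51 stood at 0.994. Beyond that last one, where S3-like cells hold much of the gene, the cause was not tested. The other 172 recomputed values stayed within their limits. The ranges of Fdft1 and Hmgcs1 lie on both sides of 1.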
